A study of Mus musculus with 12 samples.

Results

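The genes described here are those of the interferon response and of antigen presentation, in mouse embryonic stem (ES) cells with and without Rex1 (Zfp42), a zinc finger protein used as a marker of pluripotent cells. They were chosen by name, though earlier results of these data were known. Every gene probe whose name in the files begins with Gbp, Ifi, Ifn, Irf, Oas, Isg, H2-, Tap1, Tap2, Tapbp or Stat, or equals B2m, Bst2, Igtp, Irgm or Socs3, was taken. This gave 49 probes under 40 gene names, of 20280 gene probes under 7181 names on the array, and 9 of the 40 names had more than 1 probe. Stat3, Socs3, Tap1 and Bst2 stand on the array under older names (1110034C02Rik, Cish3, Abcb2 and 2310015I10Rik), so the rule did not take them, and they are described beside the members.

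The study asked what losing Rex1 does to gene expression in undifferentiated ES cells. There were 12 two-colour oligonucleotide arrays, 3 for each of 4 lines. EB5 carries both Rex1 alleles and is a derivative of the E14tg2a ES line. RKPG9 is a heterozygous (Rex1+/-) clone in which the first part of the Rex1 reading frame, in exon 4, was replaced by a puromycin resistance and green fluorescent protein cassette. HP3 and HP4 are Rex1-/- lines. The paper obtained Rex1-/- lines from RKPG9 by selection in a high dose of puromycin, and others with a second knockout vector. It does not say which route gave HP3 and HP4, and the first is assumed here. All 4 were kept without feeder cells on gelatin, with serum and with leukemia inhibitory factor (LIF), the cytokine that holds mouse ES cells undifferentiated through the gp130 receptor and Stat3. Each genotype other than Rex1-/- is thus 1 line, RKPG9 is 1 clone, and both Rex1-/- lines are taken to descend from it. No source says whether a line's 3 arrays stand for 3 cultures, so the p-values reflect array-to-array spread that could be technical.

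Interferons are secreted proteins that warn cells of infection. Type I interferons bind a receptor made of Ifnar1 and Ifnar2, and interferon gamma binds one made of Ifngr1 and Ifngr2. Receptor-bound Janus kinases then phosphorylate STAT proteins, which enter the nucleus and bind DNA. A STAT complex that holds Stat2 and Irf9 acts through the interferon-stimulated response element (ISRE), and STAT pairs act through the gamma-activated site (GAS). The induced genes include antiviral enzymes and guanylate-binding proteins, and also the class I presentation pathway, in which the Tap1 and Tap2 transporter and its partner tapasin (Tapbp) load peptides onto class I heavy chains bound to beta 2-microglobulin (B2m). Undifferentiated ES cells are known for a weak response to interferon and for little class I at their surface.

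On every array the RNA of the line was labelled with Cy3 and hybridised against Universal Mouse Reference RNA in Cy5, with no dye swap. That reference is a pool of RNA from mouse cell lines, fibroblasts, macrophages and lymphocytes among them. A level below is the log2 ratio of line to reference, so 0 means as much RNA in the line as in the pool, and levels are compared within a probe, not between probes. A difference is one line's mean level minus another's. In these bulk samples fewer cells with a transcript cannot be told apart from less of it per cell. Differences were tested with limma over all probes and Benjamini-Hochberg adjustment, and called at an adjusted p under 0.05.

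Before the members, some facts of the arrays bear on every value. The 3 EB5 arrays were read in another session of the scanner software than the other 9, with a global background adjustment that the other 9 did not have. Line and session cannot be told apart wherever EB5 is compared, whereas RKPG9, HP3 and HP4 were read together. The HP4 arrays were the dimmest of these, with a median Cy3 signal of 481 to 487 units against 520 to 546, and 85.3% to 86.1% of probes well above background in Cy3 against 87.1% to 89.9%. The 8 probes for ES cell markers all lay above the reference at mean levels of 0.43 to 5.86. Probes for Zfp42 itself read high in all 4 lines, and since their place relative to the replaced part is not known here they check nothing. None of 4 fibroblast and 6 leukocyte marker probes lay above the reference. The mean over the 6 leukocyte probes was -1.41 to -1.32 on the EB5 arrays, -1.66 to -1.60 on RKPG9, -1.64 to -1.56 on HP3 and -1.52 to -1.47 on HP4.

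Of the 49 member probes, 34 had a mean level below the reference, or 69.4%, against 52.5% of all probes. The median level was -0.41 for the members and -0.02 for all probes, and 13 members lay below -1. In the Cy3 channel 42 members were well above background on all 12 arrays and 7 were not. Dimness was common: 16 probes had a mean Cy3 signal of less than 100 units above the local background, in a range of 51.6 to 2775.

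**Figure D1:**
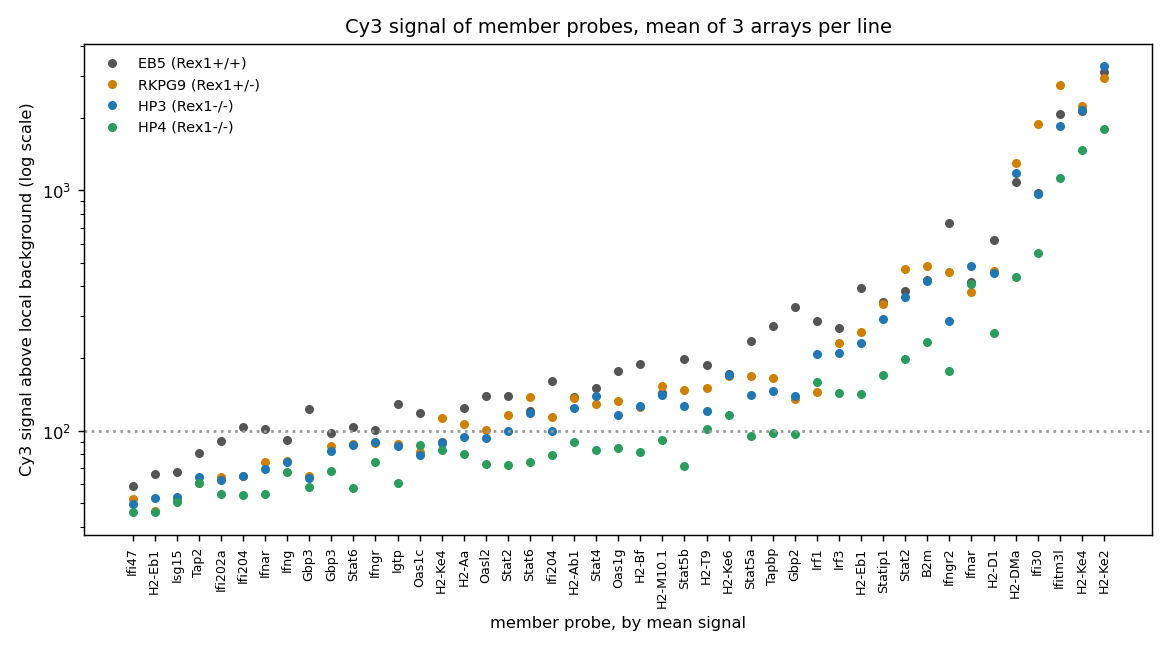
Mean Cy3 signal above the local background (log scale) of member probes in each line, 3 arrays a line, ordered by the mean, before any normalization, so lines also differ by the overall brightness of their arrays. The dotted line marks 100 units; 45 member probes are drawn, and 15 of them have a mean under it.

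In the comparisons with EB5 the members leaned to lower levels. In RKPG9, 25 members were lower (51.0%, against 21.8% of all probes called lower) and 3 were higher (6.12%, against 12.5%). In HP3, 21 were lower (42.9%, against 19.4%) and 3 were higher (6.12%, against 11.4%). In HP4, 17 were lower (34.7%, against 26.7%) and 9 were higher (18.4%, the same as the 18.4% of all probes). The median difference of the members was -0.17, -0.12 and -0.04, in that order, and that of all probes was -0.02 in each. These 3 comparisons share the EB5 arrays.

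Within the session that held RKPG9, HP3 and HP4, the lean was the other way in HP4. Against RKPG9, HP4 had 22 members higher (44.9%, against 20.9% of all probes) and 5 lower (10.2%, against 19.2%). Against HP3, HP4 had 16 members higher (32.7%, against 13.8%) and 3 lower (6.12%, against 14.8%). HP3 against RKPG9 had 6 higher (12.2%, against 12.7%) and 4 lower (8.16%, against 10.1%), which is near the background; without any one of the arrays of these lines the 4 became 1 to 2. The median difference was 0.10, 0.10 and 0.02, in that order, against 0.01, 0.00 and 0.00 over all probes. HP4 was also the line with the dimmest arrays of the session, and the part of that in the calls was not tested.

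The changes were small with the offset of 50 used here. None of the 49 members passed an adjusted p under 0.05 together with a change of more than 2-fold in any of the 6 comparisons by limma, while 12 to 31 of them had an unadjusted p under 0.05. The largest difference was -0.94. Over all probes that stricter rule called 0.217% in HP3 minus EB5, 0.291% in HP4 minus EB5, 0.529% in RKPG9 minus EB5, 0.281% in HP3 minus RKPG9, 0.38% in HP4 minus RKPG9 and 0.0247% in HP4 minus HP3. In HP3 minus EB5 this was 7 probes higher and 37 lower, but 153 and 460 with the processed signals and 323 and 301 with the deposited table. Without the offset it was 98 and 182. With the processed signals Irf1 went past 2-fold in HP4 minus RKPG9. Ifi202a was more than 2-fold lower in HP4 than in EB5 with the processed signals and with the deposited table. Not every such case is listed here. The study itself lists Gbp3 as more than 2-fold lower in HP3 than in EB5.

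**Figure D2:**
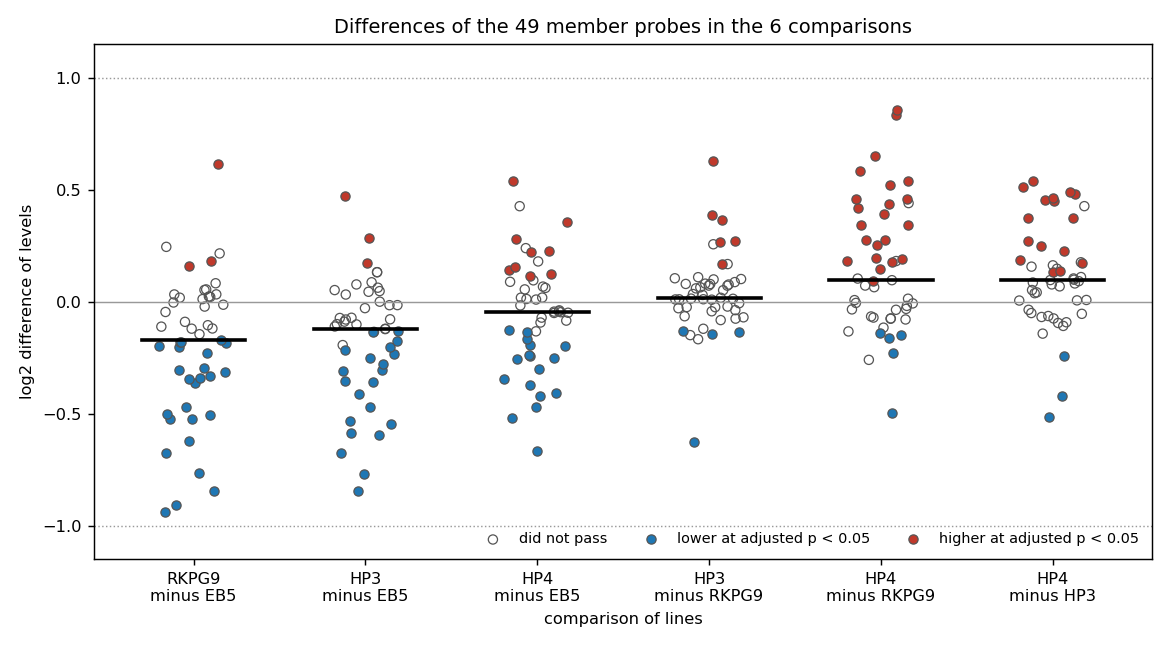
Difference of levels (log2) of each of the 49 member probes in the 6 comparisons; filled points passed an adjusted p under 0.05, red higher and blue lower, the bars are medians and the dotted lines mark 2-fold. Blue points prevail in the 3 comparisons with EB5, red points in HP4 minus RKPG9 and HP4 minus HP3, and no point reaches a dotted line.

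Part of this lean was shared by all probes that read far below the reference. Of 1275 to 1285 probes with a mean level below -1, 62.4% were lower in HP3 than in EB5, as were all 13 members of that kind, and 66.3% were lower in RKPG9 than in EB5, again with 13 of 13 members. In HP4 minus RKPG9, 54.7% of such probes were higher, with 10 of the 13 members. In HP4 minus HP3 it was 47.6%, with 9 of the 13 members. Among probes at or above -1 the members were closer to the background: 8 of 36 (22.2%) were lower in HP3 than in EB5 against 16.5% of all such probes, and 12 of 36 (33.3%) were higher in HP4 than in RKPG9 against 18.7%. The part that low level played in the members' calls was not tested. The split also moved with the processing. For HP4 minus RKPG9 the 22 higher and 5 lower became 18 and 15 with median centring in place of loess, 14 and 12 with the scanner's processed signals or the deposited table, 13 and 9 without the offset, and 5 and 7 with the Cy3 channel alone. For HP4 minus HP3 the 16 and 3 became 19 and 15, 9 and 11 (8 and 11 with the deposited table), 12 and 9, and 4 and 2, in the same order. For HP4 minus EB5 the 9 and 17 became 15 and 8 without background subtraction, 9 and 28 with median centring and 7 and 22 without the offset or 7 and 23 with the deposited table. For HP3 minus RKPG9 the 6 and 4 became 4 and 5 with median centring, 3 and 3 with Cy3 alone and 7 and 2 without background subtraction. With Cy3 alone HP3 minus EB5 went from 3 and 21 to 4 and 13, and RKPG9 minus EB5 from 3 and 25 to 5 and 16.

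The members that kept their calls under all 9 other ways of processing were few: 6 of 24 in HP3 minus EB5, 2 of 26 in HP4 minus EB5, 10 of 28 in RKPG9 minus EB5, 4 of 10 in HP3 minus RKPG9, 3 of 27 in HP4 minus RKPG9 and 1 of 19 in HP4 minus HP3. Irf1, Ifi30 and the brighter Ifnar1 probe held in both comparisons with RKPG9 within the shared session, and Gbp2 and Oas1g held against EB5 in both Rex1-/- lines. Gbp2 also held against EB5 in the heterozygous RKPG9, and Oas1g was called lower there too.

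Among the ligand and the receptors, Ifnar1, one chain of the type I interferon receptor, gave the clearest difference. Its brighter probe (A_65_P16765) read 0.28, 0.33 and 0.33 (EB5), -0.01, 0.02 and 0.04 (RKPG9), 0.40, 0.44 and 0.37 (HP3) and 0.76, 0.92 and 0.87 (HP4). HP4 lay above every other array and RKPG9 below every other array. HP4 was higher than RKPG9 by 0.83 ± 0.05 (SE, n = 3 and 3 arrays, limma, adjusted p = 6.28e-08), or 1.78-fold. HP3 was higher than RKPG9 by 0.38 (adjusted p = 3.57e-05) and HP4 was higher than HP3 by 0.45 (adjusted p = 5.14e-05), the latter 0.07 (adjusted p = 0.389) with median centring.

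The second Ifnar1 probe (A_65_P18974) went against the first. It read -0.16, -0.03 and -0.10 (EB5), -0.15, -0.24 and -0.22 (RKPG9), -0.24, -0.22 and -0.23 (HP3) and -0.31, -0.35 and -0.36 (HP4). HP4 was the lowest line there, below RKPG9 (difference -0.14, adjusted p = 0.0155), which became -0.11 (adjusted p = 0.0649) without RKPG9 replicate 1 and 0.14 with median centring. This probe was dim, with a mean Cy3 signal of 54.8 to 102 units above background by line. The 2 probes of Ifnar1 thus disagree in direction, and which of them follows the receptor's RNA is not known here.

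Of the interferon gamma receptor chains, Ifngr2 lay below EB5 in all 3 other lines. This chain, which carries Jak2, read -0.92, -0.90 and -0.95 (EB5), -1.35, -1.49 and -1.51 (RKPG9), -1.65, -1.43 and -1.72 (HP3) and -1.38, -1.47 and -1.48 (HP4). Every array of the other 3 lines lay below every EB5 array. The difference from EB5 was -0.53 in RKPG9, -0.68 in HP3 and -0.52 in HP4, each ± 0.07 (SE; limma, adjusted p = 9.58e-05, 2.54e-05 and 1.18e-04). The reference channel of this probe was itself lower than on the EB5 arrays, by 0.42, 0.74 and 0.71 (log2 Cy5 differences of -0.42, -0.74 and -0.71). Without background subtraction the HP4 difference was -0.07 (adjusted p = 0.219) and its call was lost.

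Ifngr1, the ligand-binding chain, stood out in HP4. It read -1.06, -1.04 and -1.11 (EB5), -1.28, -1.44 and -1.41 (RKPG9), -1.31, -1.31 and -1.30 (HP3) and -0.68, -0.87 and -0.83 (HP4). HP4 was higher than RKPG9 by 0.58 (adjusted p = 5.31e-06) and than HP3 by 0.51 (adjusted p = 8.33e-05), and no HP4 array overlapped another line. Both calls were lost with the Cy3 channel alone, at 0.16 and 0.06. The Ifngr1 probe was dim, with a mean Cy3 signal of 74.0 to 100 units above background by line. Ifng, the gene for interferon gamma itself, which T and NK cells make, read near the reference in all lines, between -0.14 and 0.29 on single arrays. It was higher in HP4 than in EB5 by 0.22 (adjusted p = 6.92e-03), or 0.10 with Cy3 alone, which did not pass. Its probe was dim, with a mean Cy3 signal of 67.2 to 91.9 units above background by line. A level near the reference is thus not evidence that these lines express Ifng. Over the 5 receptor and ligand probes, 3 were lower and none higher in RKPG9 than in EB5 (21.8% and 12.5% of all probes), and 3 were higher and 1 lower in HP4 than in RKPG9 (20.9% and 19.2% of all probes).

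Among the STAT proteins, Stat2, which carries the type I signal, was lower in HP4 than in RKPG9 by one probe (A_65_P13800; difference -0.23, adjusted p = 9.95e-04), and the other probe (A_65_P07406) gave -0.12, which did not pass. Without background subtraction the first gave -0.01 (adjusted p = 0.866). It was also lower in HP3 than in RKPG9 (-0.13), a call lost without any one of the 6 arrays (-0.11 to -0.14), and the other was higher in RKPG9 than in EB5 (0.18), a call lost without EB5 replicate 1 (0.15), EB5 replicate 3 (0.18) or RKPG9 replicate 2 (0.13).

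Stat4, which transmits interleukin 12 in lymphocytes, was highest in HP3. It read 0.32, 0.29 and 0.42 (EB5), 0.39, 0.35 and 0.33 (RKPG9), 0.59, 0.65 and 0.65 (HP3) and 0.16, 0.23 and 0.24 (HP4). HP3 was higher than RKPG9 by 0.27 (adjusted p = 4.01e-04), and HP4 was lower than HP3 (difference -0.42, adjusted p = 5.86e-05), and neither passed with Cy3 alone (0.23 and -0.26). Stat5b, which growth hormone and other cytokines activate, was lower than in EB5 in all 3 other lines, with differences of -0.33 in RKPG9 (adjusted p = 1.34e-03), -0.35 in HP3 (adjusted p = 1.22e-03) and -0.41 in HP4 (adjusted p = 3.17e-04), of which the last 2 were lost without background subtraction (-0.08 and 0.06). No difference among these 3 passed. Both Stat6 probes stayed within 0.08 of no difference in every comparison, and Stat5a was lower in HP4 than in EB5 alone (difference -0.13, or -0.01 without background subtraction). Statip1, now Elp2 and named for binding Stat3, was lower in HP4 than in EB5 (-0.34, adjusted p = 4.21e-04) and than in HP3 (-0.24, adjusted p = 7.05e-03), and both were -0.05 with Cy3 alone.

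Stat3 and Socs3 were not members by name, but both sit on the LIF pathway, Stat3 as its transcription factor and Socs3 as an inhibitor that Stat3 induces. Socs3 read -0.34 and -0.39 (EB5, 2 arrays kept), 0.08, 0.10 and 0.16 (RKPG9), -0.04, -0.07 and 0.01 (HP3) and 0.00, -0.03 and 0.02 (HP4). It was higher than in EB5 by 0.48 in RKPG9 (adjusted p = 6.61e-06), 0.33 in HP3 and 0.36 in HP4. With median centring these last 2 became 0.18 (adjusted p = 0.106) and -0.28, and with Cy3 alone the HP3 difference was 0.21 (adjusted p = 0.246). Stat3 was higher in HP4 than in RKPG9 by 0.18 (adjusted p = 8.75e-04), which turned to -0.27 with median centring and was 0.09 with Cy3 alone.

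Among the interferon regulatory factors, Irf1 carried one of the clearest patterns of the whole group. Irf1 is a transcription factor that interferon gamma induces and that binds the promoters of class I presentation genes. It read 0.53, 0.45 and 0.53 (EB5), -0.37, -0.31 and -0.34 (RKPG9), 0.29, 0.30 and 0.28 (HP3) and 0.53, 0.52 and 0.50 (HP4). RKPG9 was the lowest line with no overlap, HP3 lay between, and EB5 and HP4 overlapped. HP4 was higher than RKPG9 by 0.86 ± 0.03 (SE, n = 3 and 3; limma, adjusted p = 7.85e-09), or 1.81-fold, and HP3 by 0.63 ± 0.03 (adjusted p = 8.41e-08). RKPG9 was lower than EB5 (difference -0.84, adjusted p = 4.80e-09). These 3 calls held under all 9 alternatives and without any single array. HP4 was higher than HP3 by 0.23 (adjusted p = 4.51e-04), or 0.01 with median centring, and HP4 minus EB5 was 0.01 (adjusted p = 0.784).

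Irf3, a factor which answers viral nucleic acid, was lower than EB5 in RKPG9 (-0.19, adjusted p = 1.45e-03) and HP3 (-0.17, adjusted p = 2.87e-03), and HP4 was higher than RKPG9 by 0.15 (adjusted p = 5.75e-03), or -0.15 with median centring. None of these 3 passed with Cy3 alone (-0.11, -0.06 and 0.16).

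The promoters of the members could be read for the elements through which these factors act. A window of 250 bases before the start of transcription was found in RefSeq (build GRCm38.p6) for 32 member genes. The core of the ISRE was searched on both strands as GAAA, any 2 bases and GAAA again, and the GAS as TTCNNNGAA; the searches do not exclude overlapping matches. The ISRE core stood in 10 of the 32 genes (31.25%), against 936 of all 27025 genes (3.46%), and the GAS letters in 4 of 32 (12.5%), against 2197 (8.13%). The first share describes genes that were picked by name, and some of those names were given for induction by interferon. The ISRE genes were B2m, Gbp2, Gbp3, Ifitm2, Igtp, Isg15, Oas1c, Oas1g, Stat2 and Stat4, and the GAS genes were Ifi202b, Ifng, Igtp and Irf1.

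Shown here, 5′ to 3′ toward the start of transcription, is a window with a match for each of 5 genes whose values are given in the text. The matched letters are in capitals: GAS in Irf1 and the ISRE core in the others.
Irf1, GRCm38.p6 chr11:53769764-53770013 (+ strand): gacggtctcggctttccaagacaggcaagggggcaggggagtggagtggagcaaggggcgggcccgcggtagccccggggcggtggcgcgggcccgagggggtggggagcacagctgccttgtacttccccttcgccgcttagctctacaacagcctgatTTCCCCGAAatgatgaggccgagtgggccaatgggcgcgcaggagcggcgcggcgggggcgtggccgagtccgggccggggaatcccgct
Gbp2, GRCm38.p6 chr3:142620413-142620662 (+ strand): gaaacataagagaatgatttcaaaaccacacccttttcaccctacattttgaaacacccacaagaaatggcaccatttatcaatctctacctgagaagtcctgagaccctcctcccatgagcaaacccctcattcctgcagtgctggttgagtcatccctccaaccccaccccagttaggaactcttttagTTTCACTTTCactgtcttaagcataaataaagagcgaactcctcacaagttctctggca
Gbp3, GRCm38.p6 chr3:142559794-142560043 (+ strand): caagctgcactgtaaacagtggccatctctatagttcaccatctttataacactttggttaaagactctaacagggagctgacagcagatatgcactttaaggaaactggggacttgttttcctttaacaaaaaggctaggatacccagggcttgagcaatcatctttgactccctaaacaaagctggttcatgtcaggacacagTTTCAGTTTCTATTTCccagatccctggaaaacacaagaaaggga
Isg15, GRCm38.p6 chr4:156200819-156201068 (- strand): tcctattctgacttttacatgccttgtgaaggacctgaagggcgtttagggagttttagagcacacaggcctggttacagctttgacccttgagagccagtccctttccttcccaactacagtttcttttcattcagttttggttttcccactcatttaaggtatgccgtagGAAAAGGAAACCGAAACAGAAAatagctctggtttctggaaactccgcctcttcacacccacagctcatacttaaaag
B2m, GRCm38.p6 chr2:122147437-122147686 (+ strand): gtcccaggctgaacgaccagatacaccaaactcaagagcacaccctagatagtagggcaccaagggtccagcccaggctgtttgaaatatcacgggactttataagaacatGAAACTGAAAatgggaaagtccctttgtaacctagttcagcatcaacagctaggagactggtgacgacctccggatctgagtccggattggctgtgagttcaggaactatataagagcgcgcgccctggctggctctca
The matches in Gbp2 and Gbp3 read as the reverse strand of the core. Gbp3 has 2 overlapping matches, which begin 45 and 39 bases before the start, and Isg15 has 3. That in Gbp2 begins 59 bases before the start and that in B2m 139 bases before it. Irf1 and Gbp3 each have another window, before another start, that holds neither motif. A gene was counted where any of its windows held a match. A match describes the letters and is not evidence of binding.

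The guanylate-binding proteins are large GTPases that attack the vacuoles of intracellular parasites, and Gbp2 and one Gbp3 probe (A_65_P18551) were the members furthest below EB5 in RKPG9 and in HP3. Gbp2 read 0.19, 0.15 and 0.21 (EB5), -0.72, -0.81 and -0.74 (RKPG9), -0.55, -0.62 and -0.58 (HP3) and -0.45, -0.56 and -0.44 (HP4). Every EB5 array lay above the reference and every array of the other lines below it. The difference was -0.94 in RKPG9 (limma, adjusted p = 1.46e-08), -0.77 in HP3 (adjusted p = 1.72e-07) and -0.67 in HP4 (adjusted p = 4.45e-07), each ± 0.04 (SE), and all 3 held under every alternative run. Within the shared session Gbp2 was also higher than in RKPG9, by 0.17 in HP3 (adjusted p = 9.06e-03) and 0.27 in HP4 (adjusted p = 2.34e-04). Both of these calls were lost with median centring (0.10 and 0.05) and with Cy3 alone (0.17 and 0.18).

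Gbp3 had 2 probes. The first (A_65_P18551) read -0.55, -0.52 and -0.55 (EB5), -1.41, -1.36 and -1.58 (RKPG9), -1.34, -1.54 and -1.28 (HP3) and -0.91, -1.01 and -1.12 (HP4). All 3 other lines lay below EB5, with differences of -0.91 in RKPG9 (adjusted p = 3.00e-06), -0.85 in HP3 (adjusted p = 9.71e-06) and -0.47 in HP4 (adjusted p = 4.37e-04). The HP4 difference was -0.05 without background subtraction and did not pass. Outside EB5 this first probe was dim, at a mean Cy3 signal of 64.7 (RKPG9), 63.6 (HP3) and 58.2 (HP4) units above background. The EB5 mean was 123 units. Only 2 of 3 RKPG9 and 2 of 3 HP4 arrays showed the probe well above background, while all 3 HP3 arrays did. The sizes of its differences thus rest on weak signals. HP4 was above HP3 by 0.37 (adjusted p = 3.87e-03), a call lost with the processed signals, the deposited table and an offset of 0 (0.32 to 0.37) and with Cy3 alone (0.05). The second probe (A_65_P06494) was at -0.12 in HP3 (adjusted p = 0.176) and 0.05 in HP4 (adjusted p = 0.511) against EB5, so the probes do not give the same size. Gbp3 is among the genes that the study itself listed for HP3 from these arrays, so its direction there is not independent evidence. Igtp, an immunity-related GTPase, was lower than in EB5 too, with differences of -0.20 in HP4 (adjusted p = 0.0124), -0.20 in HP3 and -0.18 in RKPG9. The HP3 call was lost without EB5 replicate 2 (-0.18) or HP3 replicate 1 (-0.17), and the RKPG9 call without EB5 replicate 1 (-0.17), EB5 replicate 2 (-0.16), RKPG9 replicate 1 (-0.18) or RKPG9 replicate 3 (-0.14). The HP4 difference was -0.02 with median centring and 0.00 without background subtraction. Ifi47, another such GTPase, passed in none of the 6 comparisons. Ifi47 was not well above background on any HP3 or HP4 array.

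**Figure D3:**
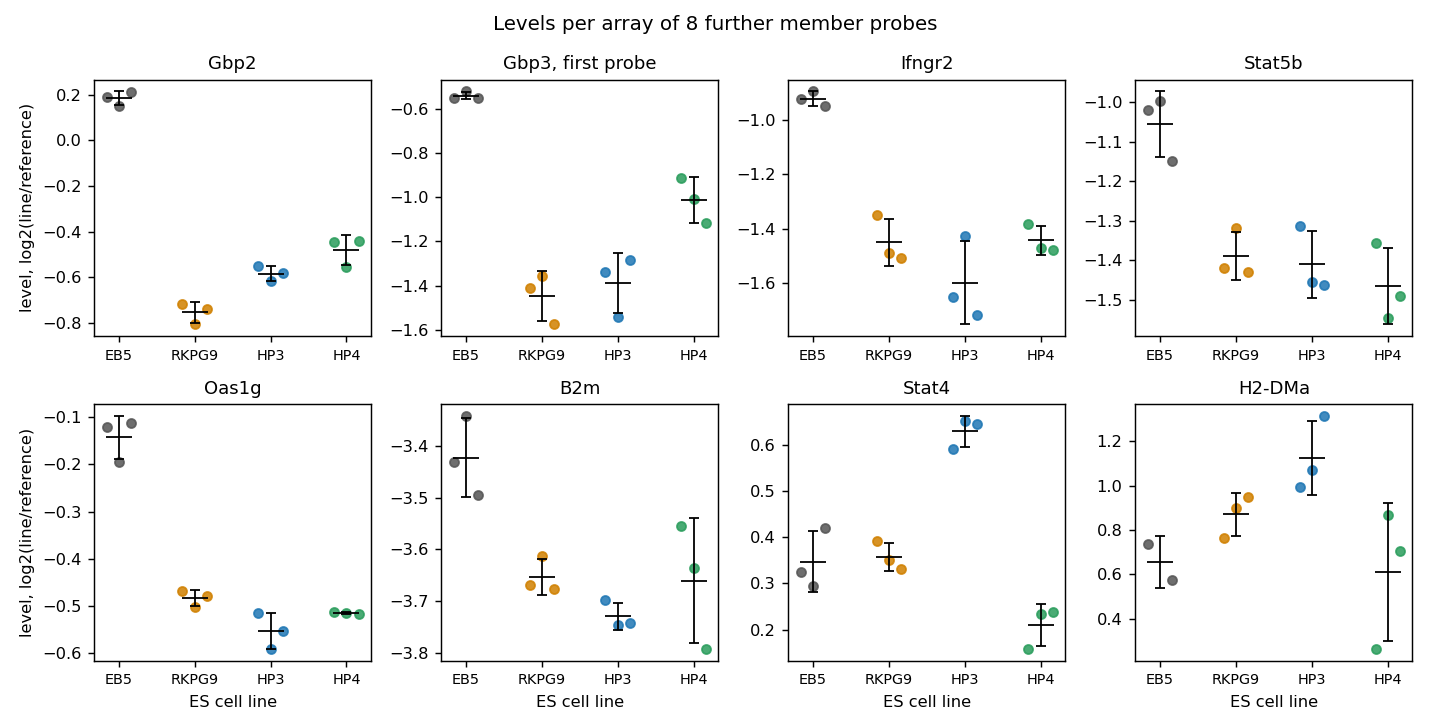
Levels, log2(line/reference), on each array for 8 member probes, with the mean and SD of each line (n = 3, or 2 for H2-DMa in EB5); the vertical axes differ between panels and do not start at 0. Gbp2, Gbp3, Ifngr2, Stat5b and Oas1g are highest in EB5 with no overlap, Stat4 is highest in HP3, and H2-DMa spreads widest in HP4.

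Of the other interferon-induced genes, Ifi30 was highest in RKPG9, where Irf1 was lowest. Ifi30 is a lysosomal thiol reductase that unfolds proteins for presentation. It read -0.79 and -0.77 (EB5, 2 arrays kept), -0.18, -0.16 and -0.16 (RKPG9), -0.78 and -0.82 (HP3, 2 arrays kept) and -0.63, -0.70 and -0.66 (HP4). RKPG9 stood apart above the other 3 lines, EB5 and HP3 overlapped, and HP4 lay just above both. RKPG9 was higher than EB5 by 0.61 ± 0.04 (SE, n = 3 and 2; limma, adjusted p = 1.29e-06). HP3 was lower than RKPG9 (difference -0.63, adjusted p = 1.52e-06), as was HP4 (-0.50, adjusted p = 2.34e-06). All 3 held under every alternative and every left-out array.

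Oas1g, a 2′-5′ oligoadenylate synthetase that activates RNase L, was lower than in EB5 in all other lines. It read -0.12, -0.19 and -0.11 (EB5), -0.47, -0.50 and -0.48 (RKPG9), -0.52, -0.59 and -0.55 (HP3) and -0.51, -0.52 and -0.52 (HP4). The difference was -0.34 in RKPG9 (adjusted p = 1.03e-05), -0.41 in HP3 (adjusted p = 4.55e-06) and -0.37 in HP4 (adjusted p = 6.98e-06). Its relative Oasl2 did not pass in any comparison. Oas1c read 1.22 on HP4 replicate 1 and -0.05 and -0.07 on the other HP4 arrays, and it too passed in none.

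Isg15, a ubiquitin-like protein, and the Ifi200 genes, which sense DNA, read higher in HP4 than in RKPG9 and HP3 as a ratio to the reference, and with the Cy3 channel alone none of the HP4 differences given here passed. Isg15 read -1.53, -1.41 and -1.61 (EB5), -1.97, -1.99 and -2.00 (RKPG9), -1.69, -2.00 and -1.94 (HP3) and -1.31, -1.35 and -1.35 (HP4). HP4 was above RKPG9 by 0.65 (adjusted p = 2.44e-05) and above HP3 by 0.54 (adjusted p = 3.37e-04), and RKPG9 was below EB5 (difference -0.47). With Cy3 alone these HP4 differences were 0.07 and 0.05, which did not pass. The mean Cy3 signal of this probe was only 51 to 68 units above background by line, and it was well above background on 3 of 3 EB5 arrays but on only 1 of 3 RKPG9, 1 of 3 HP3 and 2 of 3 HP4 arrays.

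Ifi202a (now Ifi202b) read -3.67, -3.50 and -3.78 (EB5), -4.11, -4.08 and -4.26 (RKPG9), -4.08, -4.19 and -4.09 (HP3) and -3.50, -3.65 and -3.75 (HP4). HP4 was above RKPG9 by 0.52 (adjusted p = 3.12e-04) and above HP3 by 0.49 (adjusted p = 1.17e-03), but both were -0.02 with Cy3 alone. Neither passed with the processed signals, the deposited table or an offset of 0 (-0.02 to 0.21 and 0.08 to 0.28), or with median centring (0.10 and 0.14). The Ifi202a probe was well above background on only 1 of 3 HP4 and 2 of 3 RKPG9 arrays. One Ifi204 probe (A_65_P18354) gave 0.54 for HP4 minus RKPG9 (adjusted p = 0.0113), or 0.03 with Cy3 alone. The other (A_65_P17218) was not well above background on any HP4 array, and no difference from HP4 is given for it. Ifitm3l (now Ifitm2), a membrane protein that blocks virus entry, was lower in HP3 than in RKPG9 (difference -0.13, adjusted p = 0.0231) and the call was lost without any one of the RKPG9 arrays, HP3 replicate 2 or HP3 replicate 3 (-0.11 to -0.14). In this group of 9 probes, 5 were lower and 1 was higher in RKPG9 than in EB5 (21.8% and 12.5% of all probes), and 4, both Ifi204 probes among them, were higher and 1 lower in HP4 than in RKPG9 (20.9% and 19.2%).

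Of 6 member probes for class I presentation, 5 were lower in RKPG9 than in EB5 (21.8% of all probes), 5 in HP3 (19.4%) and 3 in HP4 (26.7%), and none was higher in any of these. Against RKPG9, 4 were higher in HP4 (20.9% of all probes) and 1 in HP3 (12.7%). The H2-M10.1 probe, whose description in the files names a ring finger protein, passed in none of the comparisons.

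H2-D1 is a class I heavy chain, and the description of its probe in the files names H2-Q2, so its signal cannot be assigned to 1 of these near-identical genes. It read -2.15, -2.09 and -2.06 (EB5), -2.78, -2.73 and -2.82 (RKPG9), -2.28, -2.58 and -2.36 (HP3) and -2.20, -2.45 and -2.41 (HP4). RKPG9 lay below every other array. It was lower than EB5 (difference -0.67 ± 0.08 SE, adjusted p = 4.08e-05), a call that held under every alternative. HP3 was above RKPG9 by 0.36 (adjusted p = 4.96e-03) and HP4 by 0.42 (adjusted p = 1.29e-03), or -0.15 with median centring, and neither passed with Cy3 alone (0.18 and 0.16). The smaller gap between HP4 and EB5 (-0.26, adjusted p = 0.0192) became 0.10 without background subtraction and lost its call without EB5 replicate 3 (-0.24), HP4 replicate 2 (-0.21) or HP4 replicate 3 (-0.23).

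Tapasin, the Tapbp product, read -1.04, -0.86 and -0.98 (EB5), -1.73, -1.68 and -1.75 (RKPG9), -1.67, -1.43 and -1.56 (HP3) and -1.40, -1.36 and -1.38 (HP4). EB5 was the highest line. The difference from it was -0.76 in RKPG9 (adjusted p = 1.93e-06), -0.60 in HP3 (adjusted p = 2.49e-05) and -0.42 in HP4 (adjusted p = 2.03e-04), and the first 2 held under every alternative, while the third was 0.00 without background subtraction. HP4 was above RKPG9 by 0.34 (adjusted p = 8.07e-04), but this was -0.07 with Cy3 alone and did not pass with median centring (0.04), the processed signals, the deposited table or an offset of 0 (0.16 to 0.19), and HP3 minus RKPG9 was 0.17 (adjusted p = 0.0674).

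Tap2, one chain of the peptide transporter, read -1.28, -1.004 and -0.87 (EB5), -1.37, -1.42 and -1.46 (RKPG9), -1.25, -1.31 and -1.42 (HP3) and -0.83, -0.998 and -1.04 (HP4). HP4 was above RKPG9 by 0.46 (adjusted p = 1.81e-03) and above HP3 by 0.37 (adjusted p = 0.0107). Both calls were lost with Cy3 alone (0.20 and 0.12), and also with the processed signals, the deposited table and an offset of 0 (0.53 to 0.63 and 0.36 to 0.42). The Tap2 probe was dim, with a mean Cy3 signal of 60.7 to 81.1 units above background by line. RKPG9 was below EB5 (difference -0.36, adjusted p = 8.41e-03), or -0.12 with Cy3 alone, which did not pass. HP3 minus EB5 was -0.28 and was lost without EB5 replicate 2 (-0.25), EB5 replicate 3 (-0.19), HP3 replicate 2 (-0.28) or HP3 replicate 3 (-0.23).

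B2m, the light chain of class I, and H2-T9, a nonclassical heavy chain, were both lower than in EB5 in RKPG9 and HP3. B2m read -3.43, -3.34 and -3.49 (EB5), -3.67, -3.61 and -3.68 (RKPG9), -3.70, -3.75 and -3.74 (HP3) and -3.55, -3.64 and -3.79 (HP4). It was lower than EB5 in the other 3 lines (differences of -0.23, -0.31 and -0.24), yet the same differences were 0.14, 0.16 and 0.11 with Cy3 alone, and no difference among these 3 passed. H2-T9 read -2.27, -2.15 and -2.19 (EB5), -2.76, -2.66 and -2.76 (RKPG9), -2.71, -2.89 and -2.77 (HP3) and -2.29, -2.30 and -2.42 (HP4). RKPG9 (-0.52, adjusted p = 2.14e-05) and HP3 (-0.59, adjusted p = 1.59e-05) were below EB5, and HP4 was above HP3 by 0.46 (adjusted p = 2.21e-04). With Cy3 alone the RKPG9 and HP4 calls were lost (-0.13 and 0.24), and with median centring HP4 minus HP3 was 0.10.

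Tap1 and Bst2, which the naming rule left out, also had their lowest level in RKPG9. Tap1, the other transporter chain, read -1.46, -1.33 and -1.54 (EB5), -2.18, -2.13 and -2.19 (RKPG9), -1.73, -1.81 and -1.79 (HP3) and -1.51, -1.43 and -1.47 (HP4). RKPG9 was lower than EB5 (difference -0.72, adjusted p = 7.32e-07), and HP3 and HP4 were higher than RKPG9 by 0.39 (adjusted p = 1.29e-04) and 0.70 (adjusted p = 9.31e-07), the latter 0.15 with Cy3 alone. Bst2, or tetherin, which holds budding viruses at the cell surface, read -0.49 and -0.40 (EB5, 2 arrays kept), -1.35, -1.42 and -1.41 (RKPG9), -0.64 (HP3, both arrays kept) and -0.73, -0.80 and -0.75 (HP4). It was lower in RKPG9 than in EB5 (difference -0.95, adjusted p = 2.21e-07) and higher than RKPG9 by 0.76 in HP3 (adjusted p = 1.39e-06) and 0.64 in HP4 (adjusted p = 1.42e-06), or 0.04 in HP4 with median centring.

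Psmb8 and Psmb10, subunits of the immunoproteasome that cuts peptides for class I, were picked for naming after their values were seen. The study itself listed Psmb8 as lower in HP3 from these arrays, so its direction there is not independent evidence. Psmb8 read -2.09, -2.06 and -2.11 (EB5), -3.36, -3.55 and -3.46 (RKPG9), -2.89, -3.17 and -3.04 (HP3) and -2.34, -2.66 and -2.64 (HP4), with no overlap between any of the lines. RKPG9 was lower than EB5 (difference -1.37, adjusted p = 4.55e-07), HP3 was above RKPG9 by 0.42 (adjusted p = 4.35e-03) and HP4 by 0.91 (adjusted p = 1.07e-05). Psmb10 was lower than in EB5, with differences of -0.53 in RKPG9, -0.73 in HP3 and -0.49 in HP4. The further genes of the pathway, a list of 57 of which 31 were matched to 43 probes, gave 20 probes lower and 4 higher in RKPG9 than in EB5 (21.8% and 12.5% of all probes), 16 and 4 in HP3 (19.4% and 11.4%), and 19 and 7 in HP4 (26.7% and 18.4%). In HP4 minus RKPG9 they gave 12 higher and 10 lower (20.9% and 19.2%), in HP3 minus RKPG9 4 and 7 (12.7% and 10.1%), and in HP4 minus HP3 12 and 8 (13.8% and 14.8%).

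**Figure D4:**
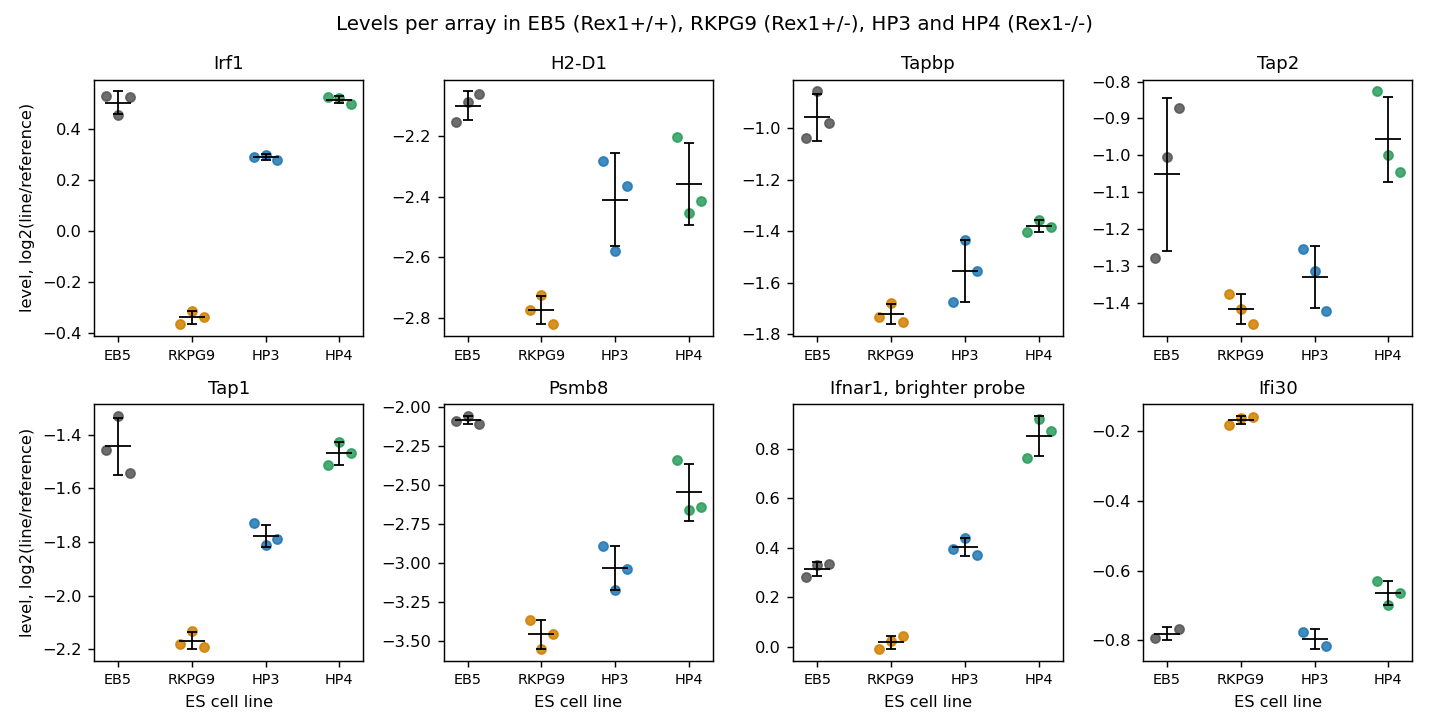
Levels, log2(line/reference), on each array for 6 member probes and for Tap1 and Psmb8, with the mean and SD of each line (n = 3, or 2 for Ifi30 in EB5 and HP3); the vertical axes differ between panels and do not start at 0. RKPG9 has the lowest mean for Irf1, H2-D1, Tapbp, Tap2, Tap1, Psmb8 and Ifnar1 and the highest for Ifi30. For Tap2 its arrays overlap those of HP3.

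Class II molecules, which present peptides from outside the cell, gave 5 probes. Against EB5, 2 were higher and 1 lower in HP3 (11.4% and 19.4% of all probes), 2 and 1 in HP4 (18.4% and 26.7%) and 1 and 1 in RKPG9 (12.5% and 21.8%), and the lower one was each time an H2-Eb1 probe that those lines did not show above background. H2-DMa, which helps load peptide onto class II, read 0.74 and 0.57 (EB5, 2 arrays kept), 0.76, 0.90 and 0.95 (RKPG9), 0.99, 1.07 and 1.32 (HP3) and 0.26, 0.87 and 0.70 (HP4). HP4 spread the widest, and HP4 was lower than HP3 (difference -0.52 ± 0.14 SE, adjusted p = 0.0186), or -0.42 (adjusted p = 0.0718) without HP3 replicate 3. Its rise over EB5 in HP3 (0.47, adjusted p = 0.0408) was lost without EB5 replicate 2 (0.55), EB5 replicate 3 (0.39), HP3 replicate 2 (0.50) or HP3 replicate 3 (0.38). H2-Aa, an alpha chain, ran from -0.03 to 0.00 in EB5 up to 0.32 to 0.36 in HP4, at a dim signal, and HP4 was above RKPG9 by 0.20 (adjusted p = 2.34e-04), or 0.11 with Cy3 alone, which did not pass. That H2-Eb1 probe (A_65_P20738) was not well above background on any RKPG9, HP3 or HP4 array. EB5 was well above background on only 1 of 3 arrays, so its own mean is in doubt and no lower bound on the difference can be given. The calls against EB5 also moved with the processing. HP4 minus EB5 was 0.11 with median centring, and the RKPG9 and HP3 calls were lost without background subtraction (-0.03 and -0.02).

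The last 5 probes take their names from the H2 region but not from presentation. H2-Ke2, now Pfdn6, a subunit of the prefoldin chaperone, read 1.55, 1.58 and 1.48 (EB5), 1.19, 1.18 and 1.19 (RKPG9), 1.45, 1.45 and 1.47 (HP3) and 1.53, 1.43 and 1.43 (HP4). RKPG9 alone was low, with a difference of -0.35 from EB5 (adjusted p = 2.00e-05), and HP3 and HP4 were each 0.27 above it (adjusted p = 2.09e-04 and 1.11e-04), or 0.16 and -0.33 with median centring. H2-Ke4, now the zinc transporter Slc39a7, was higher in HP4 than in RKPG9 by one probe (A_65_P13735; 0.34, adjusted p = 1.35e-05, or -0.29 with median centring), while the other (A_65_P19993) gave -0.01. H2-Bf, now complement factor B, was lower in HP4 than in EB5 (difference -0.16, or -0.03 without background subtraction) and passed in no other comparison.

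**Figure D5:**
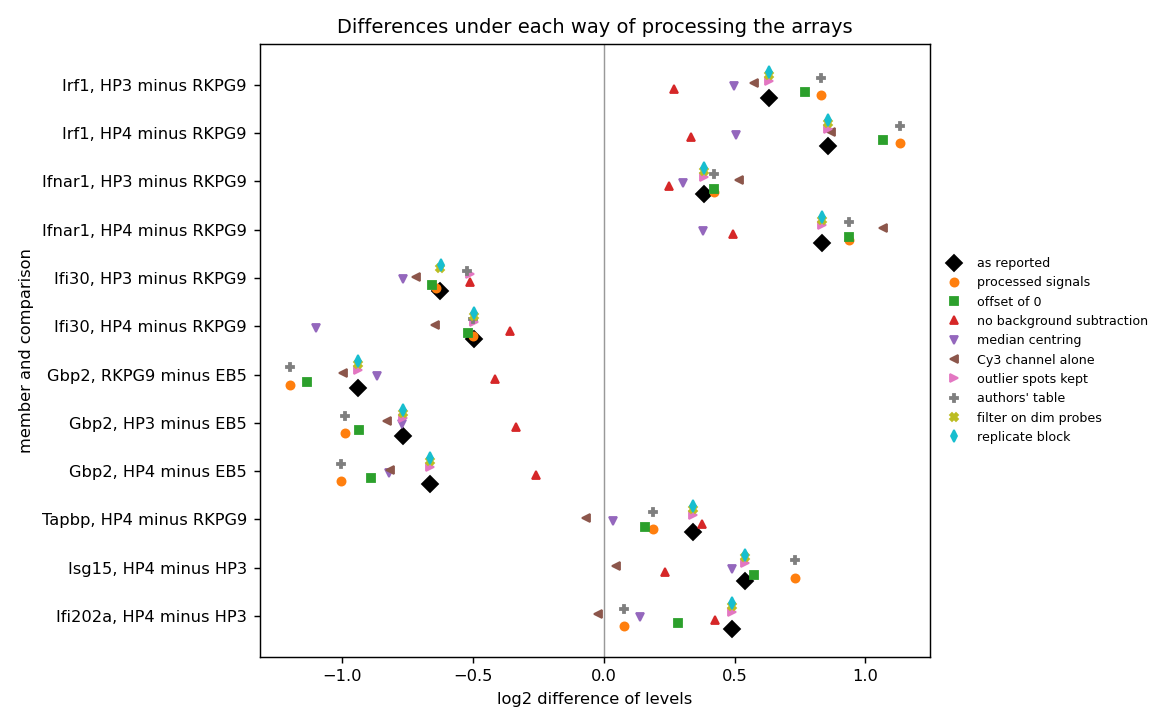
Difference of levels (log2) of 12 member results as reported (black diamonds) and under the 9 other ways of processing. Those of Irf1, Ifnar1 (brighter probe), Ifi30 and Gbp2 stay on one side of 0 throughout, whereas HP4 minus RKPG9 for Tapbp and HP4 minus HP3 for Ifi202a reach below 0 with the Cy3 channel alone.

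The plot of differences under each way of processing sets the members apart by how they depend on the reference channel and the background. For Irf1, HP4 minus RKPG9 ran from 0.33 without background subtraction to 1.13 with the processed signals, and HP3 minus RKPG9 from 0.27 to 0.83. The differences of Ifi30 and the brighter Ifnar1 probe from RKPG9 and those of Gbp2 from EB5 likewise kept their sign and their call.

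Markers of other cells and of ES cells moved in part with these comparisons. Fibroblast probes were higher in HP4 than in HP3 for 4 of 4 (13.8% of all probes), and lower in RKPG9 than in EB5 for 3 of 4 (21.8%). Leukocyte probes were lower in RKPG9 than in EB5 for 4 of 6 and higher in HP4 than in HP3 for 2 of 6. ES cell marker probes went the other way in HP4: of 8, 5 were lower and none higher than in HP3 (14.8% and 13.8% of all probes), and 5 were lower and 1 higher than in RKPG9 (19.2% and 20.9%). Their mean level was 3.06 in HP4 and 3.07 in EB5, against 3.36 in HP3 and 3.34 in RKPG9. The list of ES cell markers includes Zfp42 itself, the gene altered in RKPG9, HP3 and HP4. The part of all these markers in the members' differences was not tested.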

How the data were processed

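The authors hybridised RNA of 4 ES cell lines, 3 arrays each, to NIA Mouse 22K arrays and deposited, per the file headers, the output of Agilent Feature Extraction 7.5.1: spot intensity per channel, a processed signal and a log10 ratio of Cy5 over Cy3. The deposited values of the series hold log10 values, which equal the reversed log ratio plus one constant a probe, within 0.01 for most values, so higher means more RNA in the line; the column medians are 2.87 to 2.88, and what the constants stand for is unknown. Samples were grouped by their labels.

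Here the intensity was background-corrected (normexp, offset 50), normalized by loess within each array with control spots at weight 0, and averaged over the spots of a probe after outlier spots were left out (5 of 588 member spots, in 4 members). limma 3.58.1 in R 4.3.3 (with data.table, version 1.17.8) was fitted to all 12 arrays with no block (8 residual and 3.33 prior degrees of freedom) for 6 comparisons, and p-values were adjusted over all probes tested. The fit was tested on simulated data. Summaries used Python 3.11.15, pandas 2.3.3, numpy 2.4.6 and matplotlib 3.10.9. Precision is limited by the array number.

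The members and lists were chosen with earlier results of these data known. Named were the 4 member probes of largest change without overlap in each comparison and 22 genes of the pathway. Of the 22, 18 were matched by name to a probe, and Irf9, H2-K1, Ifnar2 and Ifit2 were not. The study itself lists Ifit2 as lower in HP3 than in EB5 on these arrays, so the array has a probe for it that was not matched here. Of the 40 names, 39 matched a current symbol, 8 of them under an older one. Some items are counted among the members but not reported by name. ES cell, fibroblast, leukocyte, trophoblast and primitive endoderm markers were listed too. Set against EB5, RKPG9 and HP3 each had 3 of 5 trophoblast probes lower, HP4 had 2, and none was higher. Of 7 primitive endoderm probes, HP3 had 2 lower and RKPG9 1, with none higher, while HP4 had 1 lower and 2 higher. Of all probes 19.4% were lower for HP3, 21.8% for RKPG9 and 26.7% for HP4. The shares called higher were 11.4%, 12.5% and 18.4%, respectively. Tried instead were a filter on dim probes (17770 probes kept), a replicate block, the deposited values, median centring, Cy3 alone, signals as the scanner processed them, uncorrected background, a normexp offset of 0, inclusion of outlier spots and omission of each array.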

Additional observations from a re-analysis of the deposited data

Results flagged for a closer look

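HP3 and HP4 are both Rex1-/- lines, taken to come from one clone. A test of the difference between them (HP4 minus HP3, limma) passed for 11 of the 19 named member probes, 10 higher and 1 lower. Of all probes 13.8% were called higher and 14.8% lower, and some members were named for the size of this difference. On the log2 scale it was 0.54 for Isg15, 0.51 for Ifngr1, 0.49 for Ifi202a, 0.45 for the brighter Ifnar1 probe, 0.37 for the first Gbp3 probe, 0.37 for Tap2, 0.23 for Irf1, 0.17 for Tapbp, 0.14 for Irf3, 0.13 for Ifi30 and -0.52 for H2-DMa. Some calls were lost when a single array was left out: H2-DMa without HP3 replicate 3 (-0.42), Ifi30 without HP3 replicate 2 or HP4 replicate 1 (0.11 each), Irf3 without HP3 replicate 2 (0.12), and Tapbp without HP3 replicate 1 or 3 or any HP4 array (0.11 to 0.19). Under the other ways of processing 10 of the 11 calls were lost at least once. With Cy3 alone Isg15 (0.046), Ifngr1 (0.065), Ifi202a (-0.022), Gbp3 (0.053), Tap2 (0.12), Tapbp (0.0032), Irf3 (0.11) and Ifi30 (0.075) did not pass. With median centring Ifnar1 (0.073), Irf1 (0.0095), Ifi202a (0.14), Tapbp (-0.11) and Irf3 (-0.095) did not pass and Ifi30 turned to -0.33. With the processed signals, the deposited table and an offset of 0, Gbp3, Tap2, Tapbp and Ifi202a did not pass, and Ifi30 was lost with the deposited table (0.022) and with outlier spots kept (0.015), as was Tapbp with the latter (0.17). The H2-DMa call was kept under all 9.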

How the results depend on the processing

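The counts of called members moved by more than 1.5 times as follows. With Cy3 alone HP3 minus EB5 had 13 lower, HP3 minus RKPG9 3 higher, HP4 minus HP3 4 higher, HP4 minus RKPG9 5 higher, and RKPG9 minus EB5 5 higher and 16 lower. With the deposited table HP3 minus EB5 had 5 higher, HP4 minus HP3 8 higher and 11 lower, and HP4 minus RKPG9 14 higher and 12 lower. With the processed signals HP4 minus HP3 had 9 higher and 11 lower and HP4 minus RKPG9 14 and 12. With an offset of 0 HP4 minus HP3 had 9 lower and HP4 minus RKPG9 13 higher and 9 lower. With median centring HP4 minus EB5 had 28 lower and HP4 minus HP3 and HP4 minus RKPG9 15 lower each. Without background subtraction HP3 minus EB5 had 12 lower, HP3 minus RKPG9 2 lower, HP4 minus EB5 15 higher and 8 lower, and HP4 minus HP3 25 higher. Leaving out each replicate in turn gave, higher and lower, 2 to 3 and 17 to 23 for HP3 minus EB5, 7 to 9 and 15 to 18 for HP4 minus EB5, 2 to 3 and 21 to 24 for RKPG9 minus EB5, 6 to 7 and 1 to 2 for HP3 minus RKPG9, 18 to 21 and 3 to 6 for HP4 minus RKPG9, and 13 to 16 and 2 to 4 for HP4 minus HP3. With the replicate block HP3 minus EB5 had 5 higher in place of 3, and no other count moved by as much. The replicate numbers do not pair the arrays: same-numbered arrays of different lines had correlations of deviations of -0.178 to 0.200 (median 0.067, 18 pairs), and others -0.262 to 0.197 (median -0.013, 36 pairs).

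Single named results changed sign, HP4 minus EB5 unless said otherwise. With Cy3 alone these were B2m (0.11, 0.16 in HP3 and 0.14 in RKPG9), Ifngr1 in HP3 (0.11) and RKPG9 (0.017), Tap1 in HP3 (0.012), Ifi202a (-0.24), Stat2 (0.030; -0.065 for the other probe in RKPG9), the second Gbp3 probe in RKPG9 (0.027) and Stat3 in RKPG9 (0.24); in HP4 minus RKPG9, Ifi202a (-0.023), Ifngr2 (-0.37) and Tapbp (-0.067); and in HP4 minus HP3, Ifi202a (-0.022) and Tap1 (-0.22). With the processed signals and with the deposited table alike these were Ifi202a (-1.26, and -0.017 against RKPG9), Isg15 (-0.55) and Tap1 in HP4 minus HP3 (-0.15). With an offset of 0 they were Ifi202a (-0.69) and Tap1 in HP4 minus HP3 (-0.040). Without background subtraction they were B2m (0.083, and 0.33 against RKPG9), H2-D1 (0.10), Irf1 (-0.060), Psmb8 (0.12), Tap1 (0.13) and Tapbp (0.0037).

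Median centring turned the most. Against EB5 it gave 0.016 for the second Ifnar1 probe in HP3 and, in HP4, 0.17 for that probe, -0.46 for Ifi202a, -0.52 for Ifi30, -0.28 for Irf1, -0.28 for Socs3 and -0.31 for Stat3. In HP4 minus RKPG9 it gave -0.15 for H2-D1, 0.14 for the second Ifnar1 probe, -0.47 for Ifngr2, -0.15 for Irf3, -0.32 for Psmb10, 0.16 for Stat2 and -0.27 for Stat3. In HP4 minus HP3 it gave -0.42 for B2m, -0.41 for H2-D1, -0.33 for Ifi30, 0.15 for the second Ifnar1 probe, -0.22 for Ifngr2, -0.095 for Irf3, -0.060 for Psmb10, -0.46 for Socs3, -0.32 for Stat3 and -0.11 for Tapbp. Of 150 single named results, calls were lost without a change of sign in 40 with Cy3 alone, 15 with median centring, 15 with an offset of 0, 14 without background subtraction, 11 with the deposited table, 10 with the processed signals, 3 with outlier spots kept and 1 with the replicate block. The cause was not tested. No alternative moved the median of all probes by over 0.1. The 16 dim members had the least signal over background, and whether this limits them most was not tested.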
